A study of Mus musculus with 6 samples.

Results

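Gldn and Vmn2r3 were 2 of the 3542 genes in a table of normalized read counts from the livers of Mul1(+/+) and Mul1(-/-) mice on a high-fat diet (HFD). They were selected by name because their measured values in Mul1(+/+) liver were at or next to 0 while those in Mul1(-/-) liver were not, so the difference between genotypes is given for these 2 genes as a description and was not tested. The Mul1(-/-) mice lacked the gene in the whole body and came from heterozygous parents, and the Mul1(+/+) mice carried the wild-type gene. Mice of both genotypes entered the HFD at 8 weeks of age and stayed on it for 16 weeks, with 3 mice per genotype. The study used male and female mice, and its methods do not give the sex of the livers sequenced. The labels give the tissue as liver and the cell type as hepatocytes, and the RNA came from pieces of whole tissue. Each of the 6 libraries is named here by genotype and by the replicate number of its label. A normalized read count is the number of reads of a gene divided by 1 factor per library.

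Gldn encodes gliomedin, a membrane protein with collagen and olfactomedin domains that Schwann cells place on their microvilli in peripheral nerve. There it binds the adhesion molecules neurofascin and NrCAM on the axon and takes part in the clustering of sodium channels at the node of Ranvier. Vmn2r3 encodes a type 2 vomeronasal receptor, a class C G protein-coupled receptor of the sensory neurons of the vomeronasal organ, where such receptors detect pheromones. Vmn2r1 to Vmn2r7 form a branch of that family whose members are often expressed together with other vomeronasal receptors. Neither gene is known for a role in hepatocytes.

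Gldn (ENSMUSG00000046167) lies on the plus strand of chromosome 9, from 54286486 to 54341786 on GRCm38, and has 1 annotated transcript of 4658 nt with 10 exons and 1647 coding nt. Vmn2r3 (ENSMUSG00000091572) lies on the minus strand of chromosome 3, from 64257215 to 64289709, and has 9 annotated transcripts of 2670 to 10927 nt, of which 3 are protein-coding. The transcript Vmn2r3-202, of 5149 nt with 7 exons, holds 2727 coding nt. Counted per gene, Gldn reads could come from 1 transcript model and Vmn2r3 reads from 9. The first lines below show where the Gldn transcript starts: the 250 bases before it (chr9:54286236-54286485, plus strand, RefSeq, GRCm38.p6), and its first 100 coding bases with the start codon in capitals.
Gldn, upstream: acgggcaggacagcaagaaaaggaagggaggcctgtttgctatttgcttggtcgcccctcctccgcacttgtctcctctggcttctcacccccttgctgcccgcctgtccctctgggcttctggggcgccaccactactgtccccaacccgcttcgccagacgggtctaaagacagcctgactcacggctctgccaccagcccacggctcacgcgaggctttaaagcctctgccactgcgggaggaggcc
Gldn-201, coding 1 to 100: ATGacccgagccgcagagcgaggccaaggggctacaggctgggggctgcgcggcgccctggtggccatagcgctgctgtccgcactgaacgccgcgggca

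Vmn2r3 has close copies, and how far they differ bears on which gene a read can be assigned to. The coding sequence of Vmn2r3-202 was identical to that of Vmn2r7 at 90.0% of aligned bases, to that of Vmn2r4 at 89.9%, and to that of Vmn2r6 at 89.7%. For Vmn2r2, Vmn2r5 and Vmn2r1 the identity was 87.5%, 87.0% and 85.1%. The stretch of 100 coding bases below, with its counterpart in Vmn2r7, holds 8 differences, in capitals, which is the median over the 2293 aligned stretches of that length, where the number ran from 0 to 33.
Vmn2r3-202, coding 155 to 254: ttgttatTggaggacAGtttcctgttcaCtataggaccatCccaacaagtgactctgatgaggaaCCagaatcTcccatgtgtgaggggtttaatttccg
Vmn2r7-204, coding 161 to 260: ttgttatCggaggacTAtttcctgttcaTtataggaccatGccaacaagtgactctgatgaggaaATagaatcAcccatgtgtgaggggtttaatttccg

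Of the 5100 stretches of 50 nt in Vmn2r3-202, 430 (8.43%) occurred letter for letter in transcripts of other genes, all 430 of them in its coding part, and they were found in 14 other genes. Of its 5050 stretches of 100 nt, 156 (3.09%) did so. None of the 4609 stretches of 50 nt in Gldn-201 occurred in another gene. A read of Vmn2r3 could therefore be shared with copies over part of the coding sequence, and the counting rule for such reads is not given in the sources used here. Only Vmn2r3-202 was searched, while the exons of all 9 Vmn2r3 transcripts cover 17411 nt. The Vmn2r3 counts are thus uncertain to an extent that these shares do not bound. Vmn2r3 was the only 1 of 238 annotated Vmn2r genes and pseudogenes, 122 of them protein-coding, that was in the table. Gldnos, an antisense gene on chromosome 9 from 54268578 to 54301570, shares 15085 nt of its span with Gldn and 0 nt of exon, and was not in the table. Whether counting used strand is not given in the sources used here.

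The deleted gene was examined first. Mul1 (ENSMUSG00000041241, chr4:138434671-138442265) encodes an E3 ubiquitin ligase of the outer mitochondrial membrane. Its normalized read counts were 3172, 3232 and 3423 in the Mul1(+/+) libraries and 1037, 965 and 1753 in the Mul1(-/-) libraries, or 3276 ± 131 against 1252 ± 436 (SD, n = 3 each). All 3 Mul1(-/-) libraries were below all 3 Mul1(+/+) libraries, with a mean at 38.2% of that of Mul1(+/+), and the highest of the 3 was Mul1(-/-) 3. By the threshold described below for other genes, Mul1 did not pass as deposited (limma, log2 fold change -1.44, adjusted p = 0.0126). It passed with the libraries rescaled by their median ratio (limma adjusted p = 0.00893) and not with equal totals of the table (0.01009). The deleted part of the gene is not given in the sources used here, so reads from outside it cannot be told from reads of an intact transcript. The genes of the table received 11932163 to 15385822 reads per library, which is part of each library, and 1 read was worth 0.817 to 1.46 normalized counts. The table holds selected genes, of which 2012 were higher and 1530 lower in Mul1(-/-), with a median log2 difference of 1.12. This median was 0.46 after rescaling the libraries by their median ratio and 0.82 after rescaling them to equal totals of the table, so differences between genotypes are relative to a scale that is not settled by these genes.

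Gldn had 0 reads in each of the 3 Mul1(+/+) libraries. It had 151, 335 and 145 reads in Mul1(-/-) 1, 2 and 3, with exact 95% Poisson intervals of 128 to 177, 300.1 to 373 and 122 to 171 reads, which cover counting error only. In normalized counts these were 221, 410 and 127, with a mean of 253 ± 144 (SD, n = 3). All 3 Mul1(-/-) libraries held over 100 reads, the second held the most, and the groups did not overlap. Groups that did not overlap, with Mul1(-/-) higher, were found for 49.3% of the 3542 genes, and both members are among them because they were chosen on this contrast. A library with 0 reads could still hold a transcript at a low level, and a floor of 3 reads was set, at 2.45 to 2.66 normalized counts in the Mul1(+/+) libraries. On the deposited scale, the Gldn mean in Mul1(-/-) liver was 99.3 times the mean of these 3 floors, 2.55. It is a ratio to a set floor and not a lower bound, since the exact 95% Poisson limit for 0 reads was 3.7 reads.

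Vmn2r3 had 1, 0 and 0 reads in Mul1(+/+) 1, 2 and 3. It had 151, 444 and 238 reads in Mul1(-/-) 1, 2 and 3, with intervals of 128 to 177, 404 to 487 and 209 to 270.2 reads. In normalized counts the Mul1(-/-) values were 221, 544 and 209, with a mean of 324 ± 190 (SD, n = 3), against 0.84, 0 and 0 in Mul1(+/+). The single read of Mul1(+/+) 1 was the only 1 for both genes in that genotype, the groups did not overlap, and the second Mul1(-/-) library was again the highest. From these reads, scaled by the value of 1 read in each library, the ratio of Mul1(-/-) to Mul1(+/+) was 1117, with a counting interval of 199.97 to 44181. The interval is wide because it rests on 1 read, and a ratio to the floor of 3 reads in each library would be 127.

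On the scale log2(normalized count + 1), on which differences of genes with few reads come out too small, Vmn2r3 differed by 7.91 and Gldn by 7.83, the largest and the second largest differences of the table. The SD within groups on this scale, pooled over the genotypes, was 0.65 for Vmn2r3 and 0.59 for Gldn. In bulk liver RNA, more cells of a type and more RNA per cell cannot be told apart, which holds for every difference given here.

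**Figure D1:**
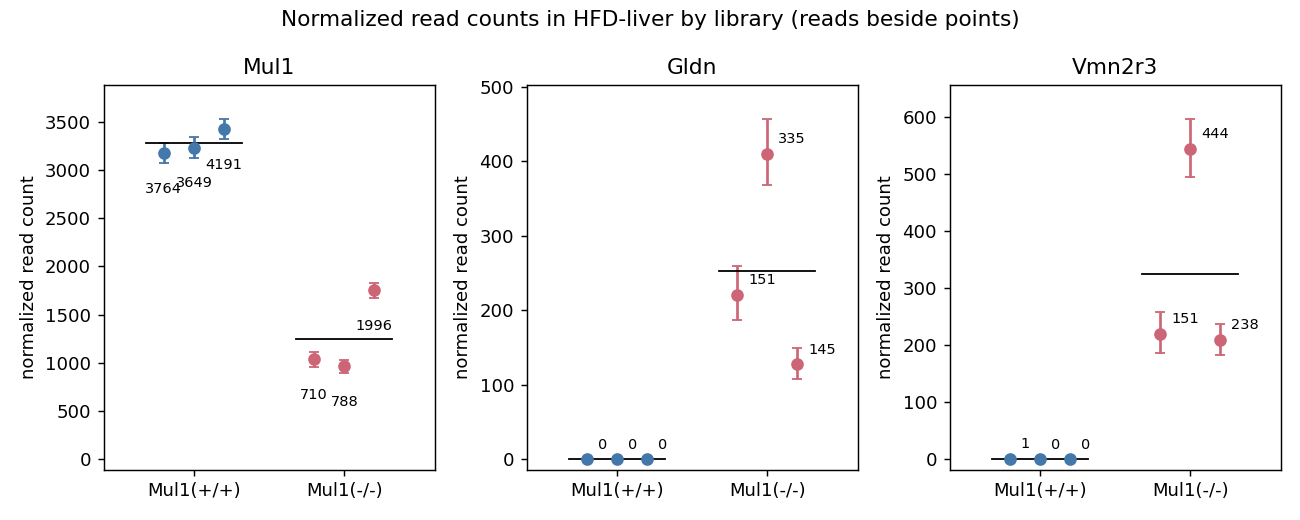
Normalized read counts (vertical axes, linear, a separate scale for each gene) of Mul1, Gldn and Vmn2r3 in each library, with reads printed beside the points; bars are exact 95% Poisson intervals and horizontal lines are group means. The 3 Mul1(+/+) libraries lie at 0 or 0.84 for Gldn and Vmn2r3, and the second Mul1(-/-) library is the highest for both, at 410 and 544.

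Reads of a gene depend on the length of its transcripts, so the levels of the 2 genes were set side by side per kb. Over the exons of all transcripts, 4658 nt for Gldn and 17411 nt for Vmn2r3, the mean level in Mul1(-/-) liver was 54.3 ± 31.0 normalized counts per kb for Gldn and 18.6 ± 10.9 for Vmn2r3 (SD, n = 3 each). With the length of Vmn2r3-202 alone, the level of Vmn2r3 was 63.0 ± 36.9 per kb. Over all exons Gldn was the higher gene per kb in each Mul1(-/-) library, at 47.4, 88.1 and 27.3 against 12.7, 31.2 and 12.0, and with Vmn2r3-202 (42.9, 105.6 and 40.6) it was the higher in Mul1(-/-) 1 only. The order of the genes thus depended on which transcripts the reads came from, which the table does not give. Mul1, for scale, was at 313 per kb in the same livers and at 819 per kb in Mul1(+/+) liver.

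The Mul1(-/-) libraries differed among themselves. The highest was 3.22 times the lowest for Gldn and 2.60 times for Vmn2r3, with coefficients of variation of 57.0% and 58.6%. The median coefficient of variation over the 2012 genes higher in Mul1(-/-) was 45.6%, and those of Gldn and Vmn2r3 were above 65.5% and 67.9% of these genes. Mul1(-/-) 2 was the highest library for both genes as deposited and after both rescalings. It was also the highest for 1069 of the 2012 genes (53.1%) as deposited, for 954 by the table total and for 624 by the median ratio. Which library was the lowest depended on the scale. As deposited it was Mul1(-/-) 3 for both, as it was for 1443 of the 2012 genes (71.7%). After rescaling by the table total it was Mul1(-/-) 1 for both, with 154, 359 and 163 for Gldn and 154, 476 and 268 for Vmn2r3 in Mul1(-/-) 1, 2 and 3. After rescaling by the median ratio it was Mul1(-/-) 3 for Gldn (177, 270.0 and 131) and Mul1(-/-) 1 for Vmn2r3 (177, 358 and 214). The ratio of the highest to the lowest library was then 2.33 for Gldn and 3.09 for Vmn2r3 by the table total, and 2.07 and 2.02 by the median ratio, so which of the genes varied more also depended on the scale.

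Within a library, the ratio of the reads of the 2 genes does not depend on how libraries were scaled. It is given in reads, not per length. Vmn2r3 took 50% of the reads of both genes in Mul1(-/-) 1 (exact Clopper-Pearson 95% interval 44.2 to 55.8%, of 302 reads). It took 57.0% in Mul1(-/-) 2 (53.4 to 60.5%, of 779 reads) and 62.1% in Mul1(-/-) 3 (57.1 to 67.0%, of 383 reads). The intervals of the first and the third library did not overlap, and the second overlapped with both. They cover counting error only, and each library is 1 liver, so the spread of this share between animals of the genotype is known from these 3 values alone. As ratios, Vmn2r3 over Gldn was 1, 1.33 and 1.64, and the mean log2 ratio of Gldn to Vmn2r3 was -0.37. The equal count of 151 reads in Mul1(-/-) 1 was shared by 5 genes of the table in that library, the members included.

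**Figure D2:**
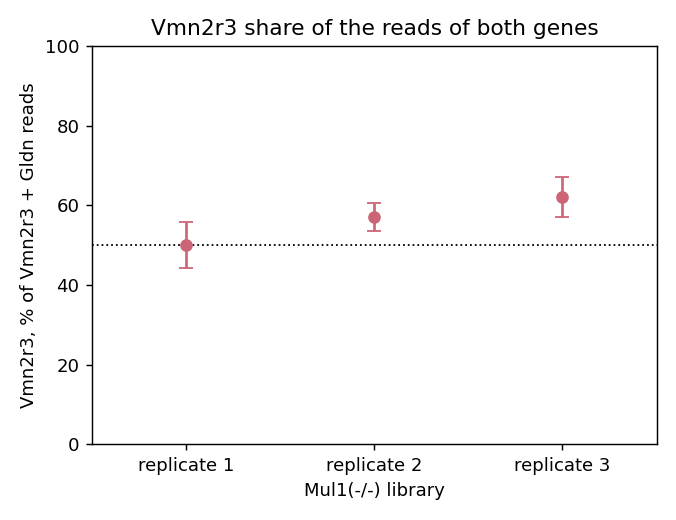
Reads of Vmn2r3 as a percentage of the reads of Vmn2r3 and Gldn together (vertical axis, 0 to 100) in each Mul1(-/-) library; points are the shares, bars exact 95% binomial intervals, and the dotted line marks equal reads. The share is 50%, 57.0% and 62.1% in replicates 1, 2 and 3.

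Genes that began as low as Gldn and Vmn2r3 were few, and they are compared here as reads per library, not per length. At most 3 reads in every Mul1(+/+) library were found for 60 of the 3542 genes, the members included. All 60 were higher in Mul1(-/-), with a median log2 difference of 3.68, which the choice of genes fixes: a gene near 0 in Mul1(+/+) could enter a table selected on fold change only by being higher in Mul1(-/-). Of the 60, 22 were protein-coding and 38 were not. The other 58 had mean normalized counts in Mul1(-/-) of 20.2 to 106, with a median of 31.9, and none had over 110 reads in a single library. Gldn and Vmn2r3 were the 2 genes of the 60 with at least 100 reads in every Mul1(-/-) library, while 4 had at least 40 and 6 had at least 20.

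The spread between Mul1(-/-) livers was compared on the deposited scale. The highest library was 15.0 times the lowest in the median of the other 58 genes, against 3.22 and 2.60 times for Gldn and Vmn2r3, although fewer reads alone widen such a ratio. Of these 58, 5 were more even than Vmn2r3 and 6 more even than Gldn, among them Slc6a7 (1.25 times), Mmp7 (2.03) and Mcub (2.09). With 0 reads in all Mul1(+/+) libraries there were 3 genes, named here after their values were seen: Gldn, Cfap44, a protein of motile cilia, and Oit1. Cfap44 had 13, 24 and 27 reads in Mul1(-/-) 1, 2 and 3, and Oit1 had 106, 6 and 6. For Oit1 most reads came from 1 liver, and for Gldn no library held less than 145.

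**Figure D3:**
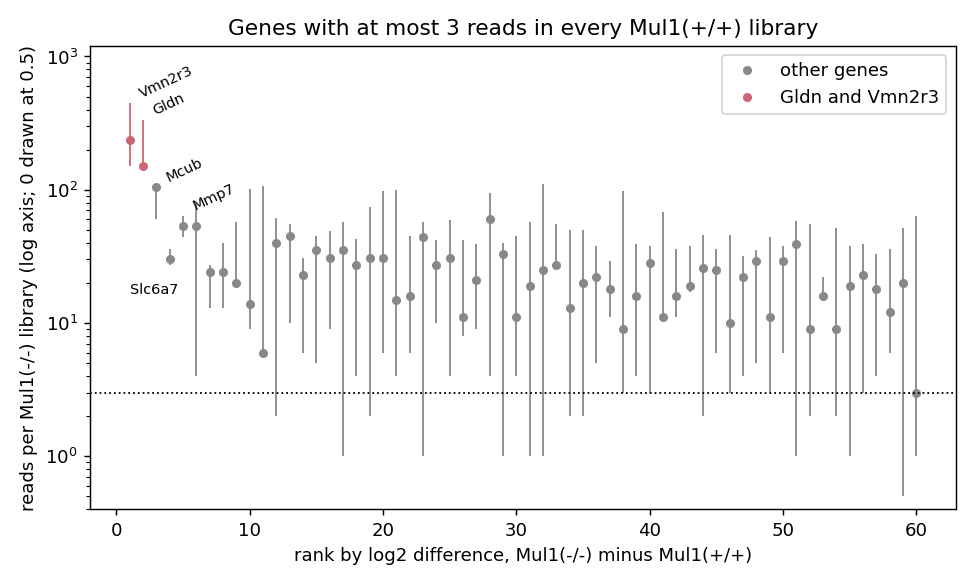
Reads per Mul1(-/-) library (vertical axis, log scale, 0 drawn at 0.5) of the 60 genes with at most 3 reads in every Mul1(+/+) library, ordered by log2 difference (horizontal axis); points are medians of 3 libraries, lines run from the lowest to the highest, and the dotted line marks 3 reads. Vmn2r3 and Gldn, with at least 151 and 145 reads in every library, lie above the other 58 genes, whose highest single value is 110 reads.

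The genes most like the members were sought among these 60 by the root mean square difference of log2(normalized count + 1) over the 6 libraries. Gldn and Vmn2r3 were each other's nearest gene, at 0.49. Next was Mcub, an inhibitory subunit of the mitochondrial calcium uniporter, at 1.33 from Gldn and 1.57 from Vmn2r3. Mcub had 0, 2 and 2 reads in Mul1(+/+) and 105, 60 and 104 in Mul1(-/-), and its order among the knockout livers was not that of the members, since Mul1(-/-) 2 was the lowest. Its log2 difference of 5.72 was the third largest of the 60.

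Mmp7, or matrilysin, a matrix protease known from epithelia, lay at 1.62 from Gldn and 1.83 from Vmn2r3, with 1, 3 and 1 reads in Mul1(+/+) and 53, 64 and 44 in Mul1(-/-). Slc6a7, a proline transporter known from brain, lay at 1.94 and 2.16, with 1, 0 and 0 reads against 27, 30 and 36. AA914427 lay at 2.13 and 2.28, with 3, 2 and 3 reads against 27, 55 and 26. The step from 0.49 to 1.33 was set in part by the choice of the pair, which had the largest and the second largest log2 differences of the table. These distances are a description over 6 libraries and share the choice of genes near 0 in Mul1(+/+).

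The 300-base windows around the transcript starts of the members, from 250 bases before to 50 after, differed in base composition. That of Gldn had 65.0% G and C, more than 81.7% of the 32851 windows of the RefSeq table, and that of Vmn2r3 had 38.3%, more than 7.40% of them, against a median of 52.7%. The motif GGGCGG, on either strand, occurred 1 time in the Gldn window, in the 50 bases after the start, and not in that of Vmn2r3, and was held by 35.7% of all windows. The other motifs searched on both strands had no match in either window. They were TATAAA (13.6% of all windows), CCAAT (37.4%), CACGTG (7.15%), TGATGNAA (3.97%) and the core of the interferon-stimulated response element (3.44%). No motif searched was shared by the members.

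The neighbourhoods of the 2 genes were compared, on different chromosomes, over 500 kb to each side. Of 21 other genes annotated around Gldn, 2 were in the table, and both were lower in Mul1(-/-) while Gldn was higher. Tnfaip8l3, a lipid transfer protein 218 kb from Gldn, had 88.5, 79.7 and 49.8 normalized counts in Mul1(+/+) and 10.23, 15.92 and 25.47 in Mul1(-/-). The groups did not overlap, though the share of the table's genes for which this held with Mul1(-/-) lower is not given here. Tnfaip8l3 passed the threshold of an adjusted p under 0.01 (limma, a linear model fitted over all genes, with Benjamini-Hochberg adjustment) with an absolute log2 fold change above 1, at a log2 fold change of -2.06 (SE 0.45, adjusted p = 0.0079). By that threshold 16.7% of the 3542 genes were called higher and 7.43% lower. After rescaling, the calls were divided otherwise, with 236 higher and 1030 lower by the median ratio and 606 higher and 712 lower by the table total, against 591 and 263.

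Dnaja4, a heat shock co-chaperone 357 kb from Gldn, had 211, 334 and 437 normalized counts in Mul1(+/+) and 77.4, 41.6 and 161 in Mul1(-/-), a log2 fold change of -1.95 (SE 0.54) that did not pass (limma, adjusted p = 0.0123). Dnaja4 passed after rescaling by the median ratio (limma adjusted p = 0.00938) and by the table total (0.0063). The genes nearest to Gldn on either side, Cyp19a1, or aromatase, at 18.4 kb and Dmxl2 at 23.4 kb, were not in the table, and their levels were not analysed here.

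Around Vmn2r3, 32 other genes were annotated and 1 was in the table. Slc33a1, an acetyl-CoA transporter of the endoplasmic reticulum 292 kb from Vmn2r3, had 2618, 3917 and 2879 normalized counts in Mul1(+/+) and 7570, 14520 and 2478 in Mul1(-/-). The groups overlapped, since Mul1(-/-) 3 was the lowest of all 6, and its log2 fold change of 1.07 (SE 0.60) did not pass (limma, adjusted p = 0.105). Of the 32, 16 were Vmn2r genes or pseudogenes, and 0 of the 16 were in the table.

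**Figure D4:**
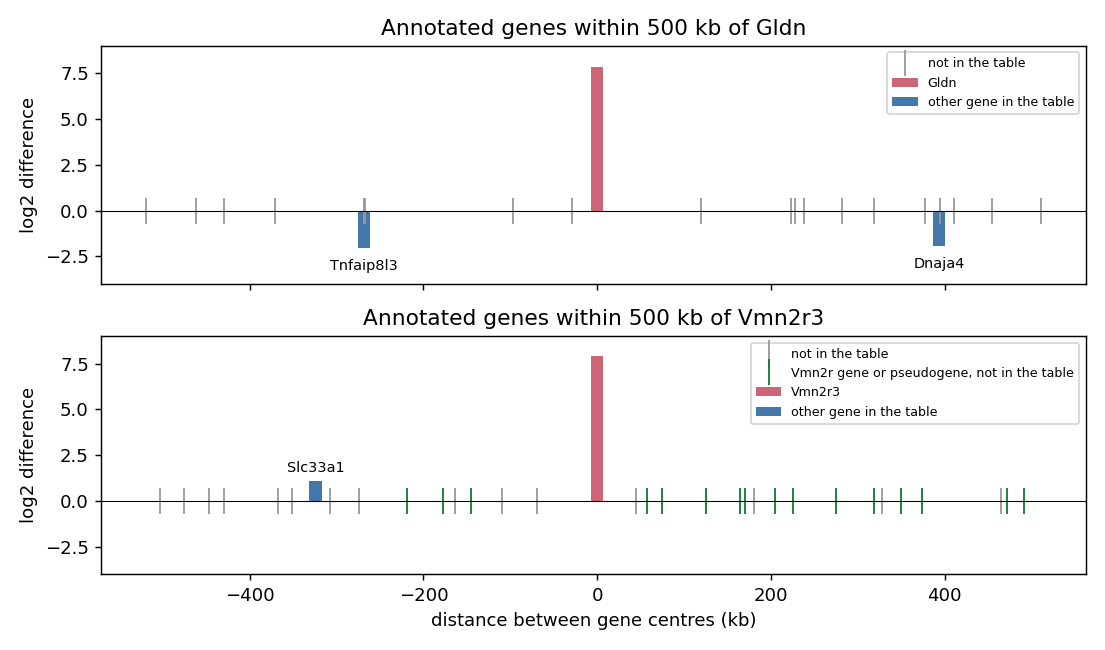
Log2 differences, Mul1(-/-) minus Mul1(+/+), on the log2(normalized count + 1) scale (vertical axis) of the table's genes within 500 kb of Gldn and of Vmn2r3, by distance between gene centres in kb (horizontal axis); ticks are annotated genes that were not in the table, in green those of the Vmn2r family. Gldn (7.83) and Vmn2r3 (7.91) were chosen for their differences. Values were available for 2 of 21 neighbours of Gldn (-2.06 and -1.95) and for 1 of 32 of Vmn2r3 (1.07), so the picture does not show whether the other neighbours differed.

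Genes that act with gliomedin were taken from a list of 25 genes of the node of Ranvier and of contacts between axon and glia, of which 3 were in the table, 0 called higher and 1 called lower, with a median log2 fold change of -1.46 against 1.12 for the table. Dag1, or dystroglycan, a laminin receptor found in many tissues, fell from 4700 ± 1843 to 1294 ± 322 normalized counts (SD, n = 3 each), a log2 fold change of -1.81 (SE 0.43, limma adjusted p = 0.0091). Cadm4 (-1.46) and Sdc3 (-1.39) did not pass as deposited. Both passed after rescaling by the median ratio (limma adjusted p = 0.00956 and 0.00924) and by the table total (0.00852 and 0.00998). The axonal partners of gliomedin, Nfasc and Nrcam, were not in the table.

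Of 20 Schwann cell and myelin markers, 4 were in the table, 1 called higher and 0 lower, with a median of 0.18. Ncam1, a neural adhesion molecule, had 9.27, 5.31 and 16.3 normalized counts in Mul1(+/+) and 46.8, 30.6 and 49.2 in Mul1(-/-), a rise of 2.03 on the log2 scale (SE 0.47, limma adjusted p = 0.0084). It lost the call after rescaling by the median ratio (log2 fold change 1.41, adjusted p = 0.0446) and by the table total (1.75, adjusted p = 0.0104). Mal (1.80), Ngfr (-1.79) and Cnp (-1.44) did not pass as deposited. Cnp passed after rescaling by the median ratio (limma adjusted p = 0.00954) and not by the table total (0.01071). The summed level of the 4 was 785 to 1164 in Mul1(+/+) and 318 to 688 in Mul1(-/-), a sum carried by Cnp and Ngfr, while Ncam1 and Mal were higher in Mul1(-/-). The defining markers Mbp, Sox10 and Egr2 were not in the table. The part of Schwann cells in the Gldn reads was not tested.

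Gliomedin is cut from the cell surface by proprotein convertases, and proteases of the tolloid type process it further. Of 12 genes of these proteases 3 were in the table, 0 called higher and 2 lower, with a median of -1.84. Pcsk6 had 8923, 7455 and 7927 normalized counts in Mul1(+/+) and 1616, 743 and 2335 in Mul1(-/-), and fell by 2.52 on the log2 scale (SE 0.48, limma adjusted p = 0.00692). Furin fell by 1.84 (SE 0.45, limma adjusted p = 0.0095), from 13446 ± 3073 to 3924 ± 1485 normalized counts (SD, n = 3 each). In both genes every Mul1(-/-) library was below every Mul1(+/+) library, and Mul1(-/-) 2 was the lowest. The share of all genes of the table with this separation is not given here, and the table holds selected genes. Mbtps1 (-1.36) did not pass. Of 12 genes with olfactomedin domains, Adgrl1 (1.25, limma adjusted p = 0.0638) was the 1 in the table, and of 11 other genes with collagen domains in membrane proteins, Scara3 (1.52, limma adjusted p = 0.0109), and neither passed.

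For Vmn2r3 the class C receptors were listed, 22 genes, of which 2 were in the table, 0 called higher and 1 lower, with a median of -0.26. These were the subunits of the GABA-B receptor. Gabbr2 had 1581, 639 and 1715 normalized counts in Mul1(+/+) and 273, 182 and 277 in Mul1(-/-), and fell by 2.32 on the log2 scale (SE 0.48, limma adjusted p = 0.00701). Gabbr1 had 47.2, 56.7 and 61.2 normalized counts in Mul1(+/+) and 402, 176 and 99.2 in Mul1(-/-), a log2 fold change of 1.79 (SE 0.52) that did not pass (limma, adjusted p = 0.0139). Of 28 genes of vomeronasal signal transduction, 1 was in the table, Gnai2, a G protein subunit of very wide expression, at -1.25 (SE 0.48, limma adjusted p = 0.0298), which did not pass. The channel Trpc2 and the G protein subunit Gnao1, through which vomeronasal neurons with these receptors signal, were not in the table.

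Among 2058 annotated genes with symbols of chemosensory receptor families, 9 besides Vmn2r3 were in the table, of which 9 were higher in Mul1(-/-), 2 were called higher and 0 lower, with a median of 1.65. Ms4a7, of a family also expressed by macrophages and lymphocytes, rose from 25.5 ± 2.99 to 146 ± 50.7 normalized counts (SD, n = 3 each), by 2.41 on the log2 scale (SE 0.42, limma adjusted p = 0.00591). Olfr1372-ps1, an olfactory receptor pseudogene, rose from 15.2 ± 3.88 to 79.8 ± 35.8, by 2.23 (SE 0.47, limma adjusted p = 0.00753). It lost the call after rescaling by the median ratio (log2 fold change 1.59, adjusted p = 0.0123). Ms4a4b (1.81), Ms4a6b (1.68) and Ms4a4c (1.65) were the next by size and did not pass, and 6 of the 9 were Ms4a genes. Each of the 9 had at least 11.4 normalized counts in every Mul1(+/+) library, where Vmn2r3 had 0.84, 0 and 0.

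On the deposited scale, 10 genes among the neighbours, the lists and the cell type markers were called. Each lost the call when any 1 of Mul1(+/+) 1, 2 and 3 or Mul1(-/-) 2 was left out (limma adjusted p-values of 0.0197 to 0.0433). This was not particular to the 10 genes, since the calls of the whole table then fell from 854 to 25, 13, 46 and 10. Without Mul1(-/-) 1 the table had 631 calls, and 5 of the 10 genes did not pass. These were Dag1, Ncam1, Olfr1372-ps1, Spp1 and Tnfaip8l3 (limma adjusted p-values up to 0.0153).

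**Figure D5:**
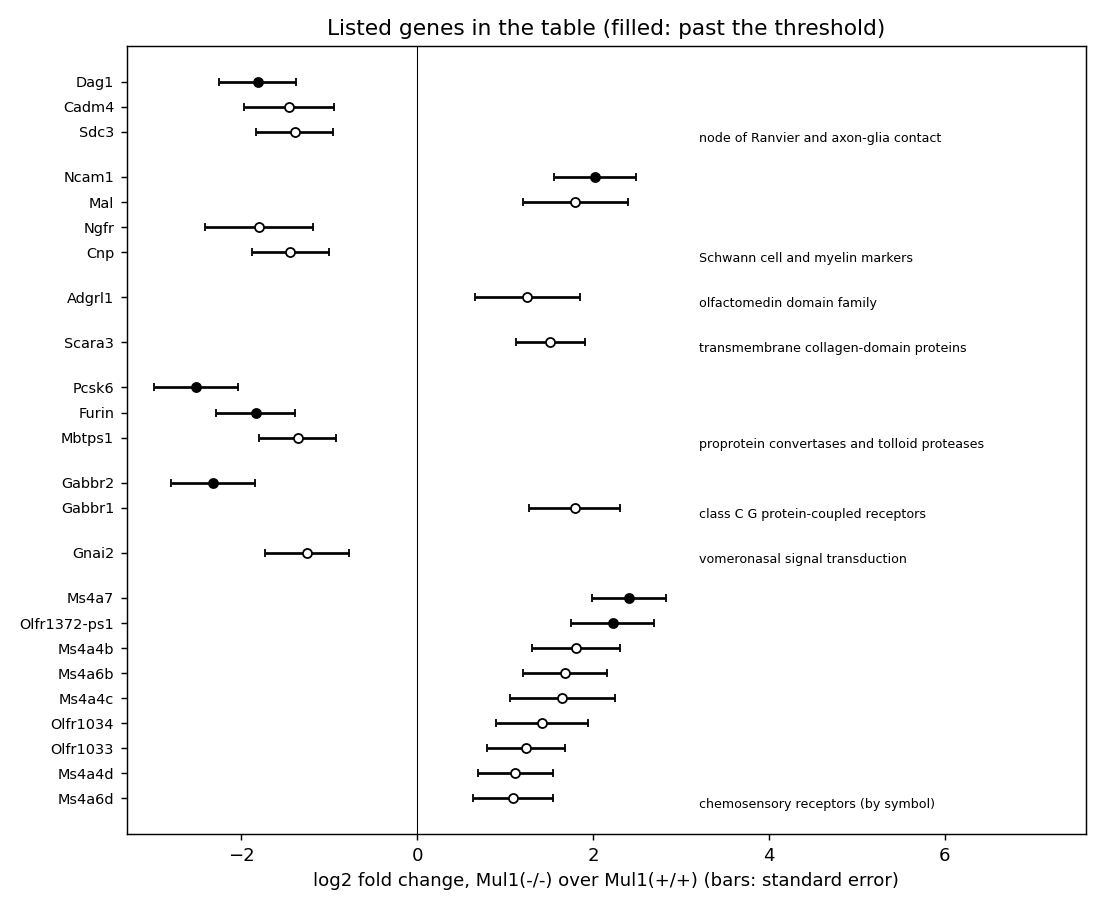
Log2 fold changes, Mul1(-/-) over Mul1(+/+) (horizontal axis; points, with bars of 1 standard error), of the genes in the table from the lists for Gldn (upper 5 groups) and Vmn2r3 (lower 3 groups), n = 3 per genotype; filled points passed the threshold. Dag1, Pcsk6, Furin and Gabbr2 lie below 0 among the filled points, and Ncam1, Ms4a7 and Olfr1372-ps1 above.

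Markers of the cell types of liver were set beside the members. Of 8 hepatocyte markers 2 were in the table and both were lower without passing as deposited, Hnf4a (-1.81) and Tat (-1.17). Tat passed after rescaling by the median ratio (limma adjusted p = 0.00893) and Hnf4a by the table total (0.00664), each under 1 rescaling only. The absence of Alb, Apoa1 and the others says only that they were not selected for the table. Of 8 markers of bile duct epithelium 5 were in the table, 5 higher and 2 of them called, Epcam and Spp1, with a summed level of 1307 to 1925 normalized counts in Mul1(+/+) and 4972 to 5303 in Mul1(-/-). Spp1 carried this sum, with 3336, 4304 and 4613 in Mul1(-/-) 1, 2 and 3. Among the Mul1(-/-) libraries it was the lowest in Mul1(-/-) 1, where Epcam, Prom1, Krt19 and Krt7 were the highest. Krt19, for example, had 1151, 176 and 147. After rescaling by the median ratio neither Epcam nor Spp1 passed (limma adjusted p = 0.0104 for Epcam and 0.0501 for Spp1). By the table total Epcam passed (limma adjusted p = 0.00555) and Spp1 did not (0.0238). The lymphocyte markers Cd3d and Cd8a, 2 of 10, summed to 13.9 to 60.2 in Mul1(+/+) and 89.1 to 202 in Mul1(-/-) and did not pass (limma adjusted p = 0.019 and 0.0278, and 0.121 and 0.185 after rescaling by the median ratio). The neuron marker Syt1, 1 of 8, was at 530 ± 173 in Mul1(+/+) and 164 ± 70.5 in Mul1(-/-) (SD, n = 3 each). Its log2 fold change of -1.74 did not pass as deposited (limma, adjusted p = 0.0118). It passed after rescaling by the median ratio (limma adjusted p = 0.00914) and by the table total (0.00587). Dcn, 1 of 8 stellate cell markers, had 3452, 4090 and 4335 normalized counts in Mul1(+/+) and 11555, 24011 and 5569 in Mul1(-/-), and did not pass (limma, log2 fold change 1.55, adjusted p = 0.0213). Its highest library was Mul1(-/-) 2, as for the members and for 53.1% of the 2012 genes higher in Mul1(-/-). Pecam1 and Clec4g, 2 of 8 endothelial markers, had log2 fold changes of -1.06 and -1.18 without passing as deposited. Both passed after rescaling by the median ratio (limma adjusted p = 0.00893 and 0.00941) and not by the table total (0.01975 and 0.02059). Of 8 macrophage markers 0 were in the table. The part of these cell types in the Gldn and Vmn2r3 reads was not tested.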

How the data were processed

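Liver RNA of 3 Mul1(+/+) and 3 Mul1(-/-) mice on HFD was sequenced and analysed by a commercial provider. The authors deposited 1 table of 3542 selected genes, compared with DESeq2, in which the library columns hold read counts divided by 1 factor per library. Its log2 fold changes, p-values and adjusted p-values are the authors' deposited test results and were not used. Aligner, build and strand are not given in the sources used here. In every library 100% of values under 2000 were whole multiples (tolerance 0.1 read) of the value of 1 read, which gave reads. Because the values are normalized and the table is a selection, the count model named in the plan for raw counts was replaced by limma 3.58.1 in R 4.3.3, on log2(value + 1), with genotype as the only term and Benjamini-Hochberg adjustment over the 3542 genes. The fit was also run on simulated counts with equal scaling and no selection of genes on the contrast, so that run does not cover these 2 features of the data. The threshold followed the study's methods: adjusted p under 0.01, with a log2 fold change above 1 in absolute size. Since the genes were selected on the same libraries, these p-values are not independent evidence. Intervals are 95% and cover counting error only, and the floor is 3 reads per library. The members and lists were chosen with earlier results of these data known, and some listed genes are not reported here and were left out of their list's counts. Named were the members, Mul1, the 5 genes nearest to each member, table genes within 500 kb, and at most 5 table genes per list by absolute log2 fold change. GENCODE M21 (GRCm38) gave coordinates and transcripts, with 3529 identifiers matched and 13 not, and RefSeq (GRCm38.p6) the promoter windows. Both members matched in both sources. Further steps used scipy 1.17.1, pandas 2.3.3, numpy 2.4.6, Biopython 1.88 and matplotlib 3.10.9 under Python 3.11.15. Alternatives were other pseudocounts, a filter on low values, 2 rescalings, a trend in the prior, another threshold, a replicate block and leaving out each library.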

Additional observations from a re-analysis of the deposited data

How the results depend on the processing

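The sign of the Gldn and Vmn2r3 differences is fixed by the choice of genes near 0 in Mul1(+/+), so only their size is given. With pseudocounts of 0.5 and 10 the log2 difference was 8.82 and 4.57 for Gldn and 8.72 and 4.89 for Vmn2r3, because the Mul1(+/+) values lie at or next to 0. Leaving out 1 library gave 7.40 to 8.24 for Gldn, 7.46 to 8.20 for Vmn2r3 and -0.56 to -0.20 for their mean log2 ratio. The number of genes near 0 in Mul1(+/+) was 3, 20, 119 and 288 with limits of 0, 1, 5 and 10 reads, by construction. The calls across the table (854, of which 591 higher and 263 lower) also moved. There were 1459 calls with a pseudocount of 10, 680 of them lower, 172 lower calls with 0.5, 1318 calls after rescaling by the table total (712 lower), 236 higher and 1030 lower after rescaling by the median ratio, 1869 with a trend in the prior (964 higher, 905 lower) and 3380 at an adjusted p under 0.05 (1877 higher, 1503 lower). Leaving out 1 library gave 10 (without Mul1(-/-) 2) to 2673 (without Mul1(-/-) 3) calls, 9 to 1595 higher and 1 to 1078 lower, with 25, 13 and 46 without Mul1(+/+) 1, 2 and 3. The cause was not tested.

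Same-numbered libraries of the genotypes correlated at r = 0.022, 0.352 and 0.054 in their deviations over genes. Libraries with different numbers were not compared, so whether the number marks a pairing was not tested. With the replicate block limma called 0 genes, 0 higher and 0 lower, while 3314 had an unadjusted p under 0.05, and no other tool was run with a block. The log2 differences of Gldn and Vmn2r3 were 7.83 and 7.91 with the block as without it.

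Over the alternatives, 41 other named genes gave 574 values, of which 421 stayed on their side of the threshold in the same direction, 64 lost the call, 89 gained it and 0 changed sign. After rescaling by the median ratio 9 genes gained the call and 4 lost it, and by the table total 5 gained and 2 lost it. Under both rescalings those that gained it were lower in Mul1(-/-) and those that lost it were higher. With a pseudocount of 0.5, Dag1 (limma adjusted p = 0.0103) and Furin (0.0108) no longer passed. The 2 count models of the plan were not run. At this depth fewer than 3 reads cannot be told from 0, and 3 libraries per genotype limit the precision of every spread.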

Other observations

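Genes that ended near 0 reads in Mul1(-/-) liver were the counterpart of the near-zero genes, and there were 5 with at most 3 reads in every Mul1(-/-) library, against 60 in Mul1(+/+). They were looked up after the values were seen and, like Gldn and Vmn2r3, are described without a test. Obp2a, an odorant-binding lipocalin, had 119, 196 and 127 reads in Mul1(+/+) and 0, 1 and 0 in Mul1(-/-), a log2 difference of -6.56 on the log2(normalized count + 1) scale. Cyp2b10, a drug-metabolizing cytochrome P450 induced through the nuclear receptor CAR, had 66, 31 and 13 reads against 0, 0 and 3, a log2 difference of -4.11. The others were the pseudogene Gm8177 (-3.95), Gipc3 (-2.60) and Apol10b (-2.33). Obp2a had over 100 reads in every Mul1(+/+) library, as Gldn and Vmn2r3 did in every Mul1(-/-) library.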
